A study of Sus scrofa with 8 samples.

Results

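The 9 genes described here encode the core of transforming growth factor beta (TGF-beta) signalling and a classical profibrotic target. They are the ligands TGFB1, TGFB2 and TGFB3, the latency proteins LTBP1, LTBP2 and LTBP4, the receptors TGFBR1 and TGFBR2, and CTGF, the name the deposited table uses for CCN2. They were picked by gene name, and all 9 were found once each among 30550 genes. Their transcripts were measured by RNA sequencing of the right ventricle in pigs (Sus scrofa). Ventricles of pigs with a heterozygous knockout of PKP2 (PKP2_het, 4 libraries) were set against those of wild-type pigs (WT, 4 libraries). PKP2 encodes plakophilin 2, a desmosomal protein of heart muscle, and its loss of 1 copy is used in the series to model arrhythmogenic cardiomyopathy, an inherited disease in which heart muscle gives way to fat and scar. The labels give no age, sex, breed or knockout design, and none says that each library is a separate animal, so the p-values below measure the spread between these libraries, which may be technical.

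TGF-beta ligands are made as precursors and secreted in a latent complex, which latent TGF-beta binding proteins (LTBPs) tether to fibrillin-rich matrix. Once released, a ligand binds the type II receptor TGFBR2, which phosphorylates the type I receptor TGFBR1, and SMAD2 and SMAD3 carry the signal to the nucleus. In the heart this pathway is known for turning fibroblasts into matrix-producing myofibroblasts. CTGF, a secreted matricellular protein, is one of its best known targets and also answers to the YAP/TEAD and SRF/MRTF transcription factors, which respond to cell stretch and the cytoskeleton.

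Levels are FPKM, fragments scaled to gene length and to a factor per library, so that levels of different genes can be set side by side. The factors held in the deposited values matched the median ratio of gene fragments between libraries, not total fragments. Summed FPKM therefore differed, from 472019 in PKP2_het replicate 2 to 1057300 in PKP2_het replicate 3. PKP2_het libraries held 25188263 to 31313628 fragments in genes, and WT libraries 23637697 to 27872031. The targeted transcript, PKP2, averaged 39.2 ± 9.99 FPKM in PKP2_het, against 62.2 ± 8.17 FPKM in WT (SD, n = 4 each), with groups that did not overlap and a two-sided exact permutation p of 0.0286, the smallest possible with 70 relabellings. In the limma fit used below its log2 fold change was -0.69 ± 0.20 (SE) and its adjusted p 0.164, so PKP2 was not called. PKP2_het replicate 3 stood apart from the other libraries. It lay at 47.8 on the first principal component, against -16.5 to 3.74 in the others, and mitochondrially encoded genes took 52.1% of its fragments, against 21.1% to 37.6%. The labels call the sample cardiomyocytes, whereas the protocol names tissue: the 10 cardiomyocyte markers were above 1 FPKM on average, and so were all 10 fibroblast, all 10 endothelial and all 9 pericyte and smooth muscle markers. In such bulk tissue, fewer cells of a type and less RNA per cell cannot be told apart.

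Expression of the 9 genes spanned more than 2 orders of magnitude. LTBP4 was the highest, at 131 FPKM on average over the 8 libraries, above 96.5% of the 10757 genes tested. TGFBR2 followed at 27.1, CTGF at 22.6, TGFB1 at 16.5, LTBP1 at 8.70, TGFB3 at 3.23, TGFBR1 at 2.95, TGFB2 at 0.844 and LTBP2 at 0.532 FPKM. The steps from LTBP4 to TGFBR2, from TGFB1 to LTBP1, from LTBP1 to TGFB3 and from TGFBR1 to TGFB2 held in 8 of 8 libraries, with ranges that did not overlap. The order of TGFBR2, CTGF and TGFB1 was not fixed: TGFBR2 exceeded CTGF in 5 libraries, and CTGF exceeded TGFB1 in 5. TGFB3 exceeded TGFBR1 in 4 of 8 libraries, and TGFB2 exceeded LTBP2 in 7.

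**Figure D1:**
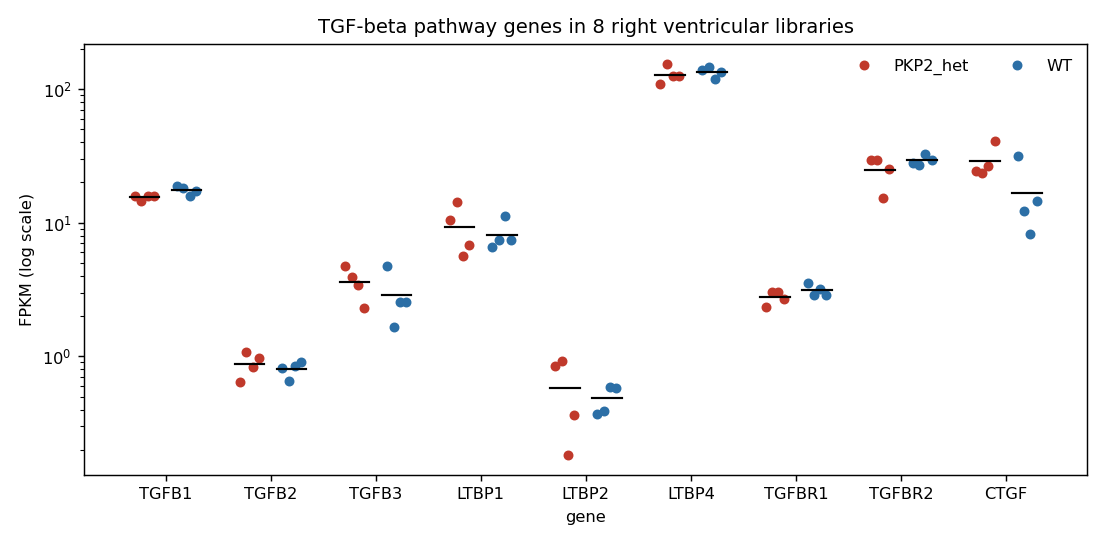
Level of each of the 9 genes in every library, in FPKM on a log axis, with PKP2_het libraries in red on the left of each pair, WT libraries in blue on the right, and a black bar at each group mean (n = 4 each). The groups overlap for every gene, and CTGF shows 3 of 4 WT libraries, at 8.18 to 14.6 FPKM, below all PKP2_het libraries.

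A gene was tested when it reached 1 FPKM in at least 4 of the 8 libraries, on log2(FPKM + 1), with limma and Benjamini-Hochberg adjustment over all tested genes (a call is an adjusted p under 0.05). Of the 9 genes 7 passed this filter. TGFB2 and LTBP2 did not, and their values are given without a test from this fit. None of the 7 was called, against 1.86% of all tested genes, and none had groups that did not overlap, against 9.19% of tested genes. At an unadjusted p under 0.05 there was 1 of 7, CTGF, where 12.8% of all tested genes met that mark. The median log2 fold change was -0.08 over the 7 genes and -0.02 over all tested genes.

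Among the ligands, TGFB1 dominated in both genotypes. It made up 74.4% to 82.8% of the summed FPKM of the 3 ligands in PKP2_het and 77.3% to 88.7% in WT. TGFB1, the ligand most studied in fibrosis, was at 15.8, 14.6, 15.8 and 15.8 FPKM in PKP2_het replicates 1 to 4, against 18.8, 18.3, 15.7 and 17.4 FPKM in WT replicates 1 to 4. The PKP2_het libraries were tightly grouped, and 3 of them lay just above the lowest WT library, replicate 3, and below the other WT libraries. The mean was 15.5 ± 0.621 FPKM in PKP2_het, against 17.6 ± 1.36 FPKM in WT (SD, n = 4 each). The log2 fold change was -0.17 ± 0.10 (SE; limma adjusted p = 0.533), with a 95% interval of the fold from 0.76 to 1.04. A 2-fold rise or fall of TGFB1 therefore lay outside this interval. With libraries scaled to equal FPKM sums, the log2 interval was -1.04 to 0.20, which takes in a 2-fold fall. TGFB1 (gene 397078) is on chromosome 6 from 49332169 to 49348642, and between 1042 and 1541 fragments per library stood behind its values.

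TGFB3, a ligand best known for its role in palate closure, was more variable. Its level was 4.74, 3.94, 3.40 and 2.32 FPKM in the PKP2_het libraries and 4.72, 1.67, 2.55 and 2.54 FPKM in the WT libraries. WT replicate 1 was close to the highest PKP2_het library, and the other WT libraries lay at or below 2.55 FPKM. The log2 fold change was 0.28 ± 0.24 (SE; limma adjusted p = 0.668), with a fold interval of 0.84 to 1.75. With 1 library left out it lay between 0.12 without WT replicate 2 (limma adjusted p = 0.905) and 0.48 without WT replicate 1 (limma adjusted p = 0.393), and it was 0.16 without PKP2_het replicate 1 and 0.42 without PKP2_het replicate 4. TGFB3 contributed 12.1% to 22.4% of summed ligand FPKM in PKP2_het, against 8.09% to 19.4% in WT.

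TGFB2, a ligand needed in cushion and outflow tract formation of the developing heart, averaged just under the 1 FPKM of the test filter. Its values rested on 146 to 258 fragments per library. It reached 0.642, 1.08, 0.831 and 0.974 FPKM in PKP2_het, against 0.825, 0.658, 0.842 and 0.905 FPKM in WT. The WT range lay inside the PKP2_het range. With the filter lowered to 0.5 FPKM its log2 fold change was 0.05 (limma adjusted p = 0.831), and the sign turned with libraries scaled to equal FPKM sums (-0.05). The summed level of the 3 ligands was 19.1 to 21.1 FPKM in PKP2_het, against 19.1 to 24.4 FPKM in WT. TGFB2 (gene 397084) lies on chromosome 10 from 8306136 to 8435307.

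LTBP4 carried most of the latency protein transcript. With LTBP3, the remaining family member, added, it made up 88.9 ± 3.22% of summed LTBP FPKM in PKP2_het, against 89.0 ± 3.12% in WT (SD, n = 4 each). LTBP4 binds the latent form of TGF-beta 1 and also takes part in elastic fibre assembly. Its levels were 109, 155, 124 and 124 FPKM in PKP2_het, against 138, 147, 118 and 135 FPKM in WT, so the WT range lay within that of PKP2_het. The log2 fold change was -0.08 ± 0.14 (SE; limma adjusted p = 0.836), with a fold interval of 0.76 to 1.18. LTBP4 (gene 100627785) lies on chromosome 6 from 48831018 to 48861503, 471 kb from TGFB1. LTBP2 and TGFB3 lie 1281 kb apart on chromosome 7, where LTBP2 (gene 100514300) spans 97744974 to 97852848 and TGFB3 (gene 397400) spans 99133873 to 99162239.

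LTBP1 (gene 100627243, chromosome 3 from 106300748 to 106724538), the first latency protein described and a binder of all TGF-beta forms, differed more within groups than between them. It was at 10.4, 14.2, 5.59 and 6.82 FPKM in PKP2_het, against 6.62, 7.40, 11.1 and 7.42 FPKM in WT. PKP2_het held both the highest library, replicate 2, and the lowest, replicate 3. The log2 fold change was 0.11 ± 0.26 (SE; limma adjusted p = 0.875), with a fold interval of 0.72 to 1.61. It was -0.10 without PKP2_het replicate 2 and 0.30 without PKP2_het replicate 3.

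LTBP2, which does not bind latent TGF-beta and is a component of elastic microfibrils, was at 0.852, 0.923, 0.182 and 0.364 FPKM in PKP2_het, against 0.369, 0.392, 0.592 and 0.585 FPKM in WT. PKP2_het replicates 1 and 2 were above all WT libraries and replicates 3 and 4 below all of them. With the filter at 0.5 FPKM the log2 fold change was 0.06 (limma adjusted p = 0.881). It was -0.02 without PKP2_het replicate 1 and -0.04 without PKP2_het replicate 2. LTBP2 rested on 40 to 250 fragments per library, the fewest of the 9 genes.

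LTBP1 and LTBP2 varied together from library to library. Over the 8 libraries, on log2(FPKM + 1), Pearson's r was 0.91 (exact permutation p = 0.000818) and Spearman's rho 0.95 (exact permutation p = 0.00114). Adjusted by Benjamini-Hochberg over the 36 pairs of the 9 genes, these exact permutation p-values were 0.0295 for r and 0.0411 for rho. Without PKP2_het replicate 2 and WT replicate 3, the libraries farthest from the LTBP1 median, r was 0.96. TGFBR2 followed both less closely, with r of 0.66 to LTBP1 (exact permutation p = 0.0661) and 0.73 to LTBP2 (exact permutation p = 0.0162), and adjusted exact permutation p-values of 0.793 and 0.292. Spearman's rho was 0.90 for each (exact permutation p = 0.00456, adjusted p = 0.0548), and r without the libraries farthest from the median was 0.70 to LTBP1 and 0.65 to LTBP2. These were r values pooled over both genotypes, since 4 libraries of 1 group are too few for a value of their own. Without PKP2_het replicate 3 the r of TGFBR2 was 0.67 to LTBP1 and 0.60 to LTBP2, and r between LTBP1 and LTBP2 was 0.88. Of the 36 pairs 1 passed the adjustment for r. The share of all pairs of tested genes with such an r was not computed, so the count does not mark LTBP1 and LTBP2 as a special pair. Genes outside the 9 came closer to each, NEO1 to LTBP1 (r 0.95) and MXRA8 to LTBP2 (r 0.96). The summed level of 10 fibroblast markers was 428, 589, 287 and 347 FPKM in PKP2_het, against 311, 363, 400 and 389 FPKM in WT. Both extremes of this sum were the libraries with the highest and lowest LTBP1 and LTBP2. The lower extreme rested on DCN (decorin), the marker of highest mean. Without DCN the sum was lowest in WT replicate 1, at 197 FPKM, against 199 FPKM in PKP2_het replicate 3. It was still highest in PKP2_het replicate 2, at 333 FPKM. The part of fibroblast content in the shared pattern of LTBP1 and LTBP2 was not tested.

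**Figure D2:**
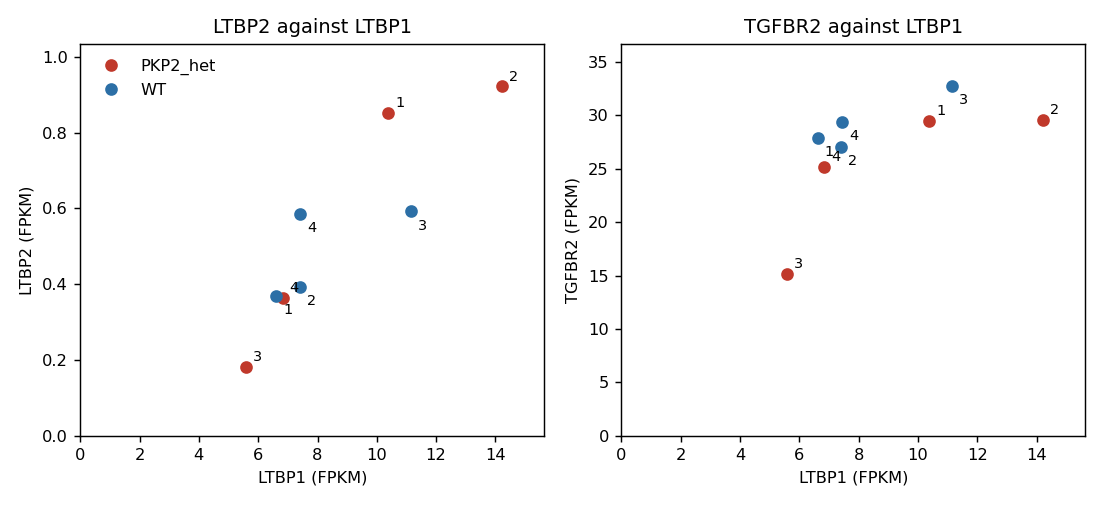
LTBP2 (left) and TGFBR2 (right) against LTBP1 in FPKM, with 1 point per library, PKP2_het in red, WT in blue and the replicate number beside each point. LTBP2 climbs with LTBP1 from PKP2_het replicate 3, at 5.59 FPKM of LTBP1, to PKP2_het replicate 2, at 14.2 FPKM, while TGFBR2 levels off near 30 FPKM.

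The type II receptor transcript was far more abundant than that of the type I receptor. The ratio of TGFBR2 to TGFBR1 was 9.20 ± 3.13 in PKP2_het and 9.41 ± 1.09 in WT (SD, n = 4 each). TGFBR2 (gene 100038019, chromosome 13 from 16784370 to 16875828) was at 29.5, 29.6, 15.2 and 25.2 FPKM in PKP2_het, against 27.9, 27.0, 32.7 and 29.4 FPKM in WT. PKP2_het replicate 3 was the lowest by a wide margin, and replicates 1 and 2 lay inside the WT range. The log2 fold change was -0.27 ± 0.20 (SE; limma adjusted p = 0.623), with a fold interval of 0.61 to 1.13. Without PKP2_het replicate 3 it was -0.06 (limma adjusted p = 0.830). TGFBR1 (gene 396665, chromosome 1 from 240842735 to 240918267) was at 2.35, 3.01, 3.03 and 2.68 FPKM in PKP2_het, against 3.53, 2.90, 3.20 and 2.88 FPKM in WT. Its groups overlapped narrowly, with a log2 fold change of -0.13 ± 0.10 (SE), a limma adjusted p of 0.631 and a fold interval of 0.78 to 1.07.

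CTGF had the largest difference of the 9 genes. It was at 24.4, 23.4, 26.4 and 40.5 FPKM in PKP2_het, against 31.3, 12.3, 8.18 and 14.6 FPKM in WT. WT replicate 1 lay within the PKP2_het range, and the other WT libraries lay below every PKP2_het library. The mean was 28.7 ± 7.98 FPKM in PKP2_het, against 16.6 ± 10.1 FPKM in WT (SD, n = 4 each), a ratio of 1.73. The log2 fold change was 0.88 ± 0.34 (SE), with an unadjusted p of 0.0291 (limma adjusted p = 0.310), so CTGF was not called. Its fold interval, 1.08 to 3.13, was the widest of the 7 genes, and at least 622 fragments per library stood behind its values. CTGF (gene 100152141) lies on chromosome 1 from 31674398 to 31677697.

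The CTGF difference depended on 1 WT library more than on any PKP2_het library. Without WT replicate 1 the log2 fold change was 1.22 ± 0.24 (SE; limma adjusted p = 0.0520), where 1.29% of all tested genes were called. Without any other single library it was 0.62 to 0.96, with limma adjusted p-values of 0.282 to 0.593. With weights for library quality it was 1.00 (limma adjusted p = 0.0793). CYR61 (CCN1), a CCN family relative of CTGF and like it a YAP/TEAD target, named here after its values were seen, was also highest in WT replicate 1 among the WT libraries. It was at 15.7, 28.7, 21.8 and 51.8 FPKM in PKP2_het, against 51.7, 16.1, 3.78 and 19.4 FPKM in WT, with a log2 fold change of 0.69 (limma adjusted p = 0.685). FOS, an immediate early gene likewise named after its values were seen, was at 3.84, 35.1, 1.39 and 28.6 FPKM in PKP2_het, against 37.4, 3.84, 1.46 and 1.49 FPKM in WT. WT replicate 1 also had the fewest fragments and the highest mitochondrial share of the WT libraries. The part of these features in its CTGF level was not tested.

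**Figure D3:**
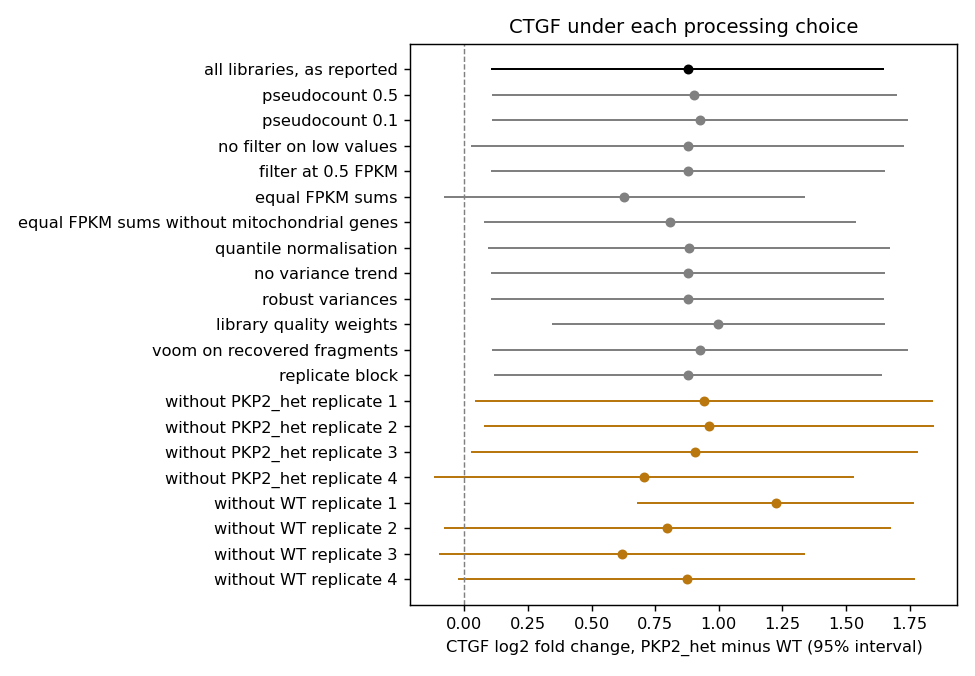
Log2 fold change of CTGF, PKP2_het minus WT, with its 95% interval, as reported (black), under other processing choices (grey) and with 1 library left out (brown). All values are positive, from 0.62 without WT replicate 3 to 1.22 without WT replicate 1, and 5 of the intervals reach below 0.

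The genes whose levels most resembled CTGF were chosen by the highest Pearson r on log2(FPKM + 1) over the 8 libraries, among 9983 tested genes with a symbol. They were PHLDB2, a cortical adaptor protein that binds phosphoinositides, at r 0.97 and rho 0.98, TXNL1, a thioredoxin-like protein, at r 0.97, and TIMM8B, a mitochondrial import chaperone, at r 0.94. SLC43A3 and FAM111A followed, at 0.93 and 0.92. Without PKP2_het replicate 3 these 5 values ran from 0.92 to 0.98. For the other members the most similar genes were ROGDI for TGFB1 (r 0.96), ACOT11 for TGFB2 (0.93), GALM for TGFB3 (0.94), NEO1 for LTBP1 (0.95), MXRA8 for LTBP2 (0.96), AKAP10 for LTBP4 (0.94), FMNL1 for TGFBR1 (0.96) and KBTBD7 for TGFBR2 (0.99). All values share the same 8 libraries and are the highest of 9983, so they describe likeness only.

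The wider pathway gave shares close to or below those of all tested genes. Outside the 9 members, 126 of 152 genes matched from 9 lists were tested, and limma called 0 of them, against 1.86% of all tested genes. At an unadjusted p under 0.05 there were 16 of 126, close to the share in the background. Groups did not overlap for 4 of the 126, against 9.19% of all tested genes. Of the 126 log2 fold changes 62 were positive and 64 negative, with a median of -0.0043. Over all 10757 tested genes 4911 were positive and 5846 negative. The list medians given below rest on few libraries: with 1 library left out, the median of 6 of the 9 lists changed sign.

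Genes of latency and activation, a list that also holds the latency protein LTBP3, numbered 17 tested, with 0 called. Their median log2 fold change was -0.04 (-0.16 without PKP2_het replicate 2 and 0.07 without PKP2_het replicate 3). The smallest p-values were those of the plasminogen activators PLAU (urokinase) and PLAT (tissue type). PLAU averaged 3.40 ± 0.623 FPKM in PKP2_het, against 2.30 ± 0.432 FPKM in WT (SD, n = 4 each; limma adjusted p = 0.214). PLAT averaged 21.8 ± 4.80 FPKM in PKP2_het, against 14.3 ± 3.96 FPKM in WT (limma adjusted p = 0.282). The limma adjusted p of LTBP3 was 0.600, at a mean of 6.29 ± 1.98 FPKM in PKP2_het, against 7.73 ± 1.58 FPKM in WT.

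Of 10 other receptors and co-receptors of the superfamily 0 were called, and the median log2 fold change was -0.11 (0.01 without PKP2_het replicate 3, with 5 of 10 positive). BMPR1A, a type I receptor for bone morphogenetic proteins, had a log2 fold change of 0.34 (limma adjusted p = 0.251). With library quality weights its adjusted p was 0.0181, in a fit that called 6.13% of all tested genes. BAMBI, a decoy receptor that dampens TGF-beta signalling, averaged 2.40 ± 0.692 FPKM in PKP2_het, against 1.43 ± 0.349 FPKM in WT (SD, n = 4 each; limma adjusted p = 0.267). BMPR2 had a log2 fold change of -0.54 (limma adjusted p = 0.445), with PKP2_het replicate 3 at 2.42 FPKM and the other PKP2_het libraries at 5.87 to 8.26 FPKM, against 8.15 to 8.79 FPKM in WT. A list of other superfamily ligands had 6 tested genes and 0 called, at a median log2 fold change of -0.22 (-0.07 without PKP2_het replicate 3). Both medians include BMP1, which despite its name is a metalloproteinase and not a ligand. The smallest p was that of BMP6, at a log2 fold change of -0.26 (limma adjusted p = 0.442). INHBA followed at -0.20 (0.599), then BMP1 at 0.32 (0.676).

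The SMAD list held 9 tested genes, among them ZFYVE9, which anchors SMAD proteins and is not itself a SMAD. None of the 9 was called, and their median log2 fold change was -0.05 (-0.14 without WT replicate 3 and 0.03 without WT replicate 1). SMAD2, a signal transducer of TGF-beta, was at 1.53 to 1.72 FPKM in PKP2_het, against 1.77 to 2.25 FPKM in WT. Its groups did not overlap, as in 9.19% of all tested genes. Its log2 fold change was -0.23 and its limma adjusted p 0.277. SMAD1 and SMAD5, transducers of bone morphogenetic proteins, had log2 fold changes of -0.21 and 0.12, with limma adjusted p-values of 0.408 and 0.673. Of 19 inhibitors and regulators of SMAD signalling 0 were called, with a median log2 fold change of -0.03 (-0.07 without WT replicate 4 and 0.08 without PKP2_het replicate 1). PMEPA1, a feedback inhibitor induced by TGF-beta, averaged 2.81 ± 0.527 FPKM in PKP2_het, against 4.02 ± 0.751 FPKM in WT (SD, n = 4 each; limma adjusted p = 0.260). FSTL3, a secreted activin antagonist, was at 6.16 to 10.7 FPKM in PKP2_het, against 4.75 to 7.48 FPKM in WT, and its limma adjusted p was 0.317.

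Downstream, 0 of 19 tested matrix and myofibroblast genes known to answer to TGF-beta were called, and their median log2 fold change was 0.01 (-0.13 without PKP2_het replicate 2 and 0.09 without PKP2_het replicate 4). CNN1, a calponin of smooth muscle and myofibroblasts, had a log2 fold change of 0.63 (limma adjusted p = 0.261), LOXL2, a collagen crosslinking enzyme, of -0.24 (0.312) and SPARC, a collagen-binding matrix protein, of -0.39 (0.370). LOXL2 had an adjusted p of 0.0402 with library quality weights. Of the 9 pericyte and smooth muscle markers, a list that holds CNN1, 1 was called higher: LMOD1, a leiomodin, at a mean of 7.32 ± 0.316 FPKM in PKP2_het, against 4.63 ± 0.747 FPKM in WT (SD, n = 4 each; limma adjusted p = 0.0346). The summed level of these markers was 285 to 444 FPKM in PKP2_het, against 298 to 449 FPKM in WT, and their part in the CNN1 level was not tested.

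Of 17 tested early response genes 0 were called, with a median log2 fold change of 0.12 (0.03 without PKP2_het replicate 3 and 0.30 without WT replicate 1). CDKN1A, the cell cycle inhibitor p21, was nearest to the threshold at 2.52 ± 0.673 FPKM in PKP2_het, against 0.990 ± 0.421 FPKM in WT (SD, n = 4 each), a log2 fold change of 0.83 (limma adjusted p = 0.0595). Its groups did not overlap, as in 9.19% of all tested genes. It was called without PKP2_het replicate 3 (adjusted p = 0.0195, in a fit that called 2.92% of all tested genes), with library quality weights (0.00294) and without WT replicate 1 (0.0376). Its adjusted p ran from 0.00294 to 0.392 over all alternatives. SNAI2, a transcription factor of mesenchymal cells, had a log2 fold change of 0.30 (limma adjusted p = 0.370).

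In the list of the CCN family and of genes sharing the YAP/TEAD and SRF/MRTF inputs of CTGF, 0 of 23 tested genes were called and the median log2 fold change was -0.01 (-0.09 without PKP2_het replicate 2 and 0.04 without PKP2_het replicate 3). ANKRD1, a YAP target that answers to stretch in heart muscle, had a mean difference of the opposite sign to that of CTGF. It was at 80.6, 215, 123 and 262 FPKM in PKP2_het, against 374, 341, 172 and 444 FPKM in WT, a log2 fold change of -1.03 with a limma adjusted p of 0.307. WISP2 (CCN5) had a log2 fold change of 0.52 (limma adjusted p = 0.347) and TEAD3 of 0.19 (0.471). The ratio of CTGF to CYR61 was 0.781 to 1.55 in PKP2_het and 0.605 to 2.16 in WT.

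Among 15 tested genes of other profibrotic ligands and receptors 0 were called, with a median log2 fold change of 0.05 (0.02 without WT replicate 4 and 0.18 without PKP2_het replicate 1). EDNRB, an endothelin receptor found on endothelial cells, was at 2.53, 3.03, 5.37 and 3.21 FPKM in PKP2_het, against 6.80, 4.79, 4.28 and 4.97 FPKM in WT, a log2 fold change of -0.47 (limma adjusted p = 0.327). It was called without PKP2_het replicate 3 (adjusted p = 0.0469) and with library quality weights (0.0234). All 10 endothelial markers had a negative log2 fold change, as did 5846 of all 10757 tested genes. Of these markers 0 were called, with a median of -0.26. Their summed level was 243 to 512 FPKM in PKP2_het, against 291 to 570 FPKM in WT. Without WT replicate 1 the endothelial median was -0.09 and 3 of the 10 were positive; with any 1 library left out it lay between -0.45 and -0.07. Their part in the EDNRB level was not tested. PDGFD, a platelet-derived growth factor, had a log2 fold change of 0.52 (limma adjusted p = 0.458) and LGALS3, a lectin of macrophages and fibroblasts, of 0.24 (0.483).

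**Figure D4:**
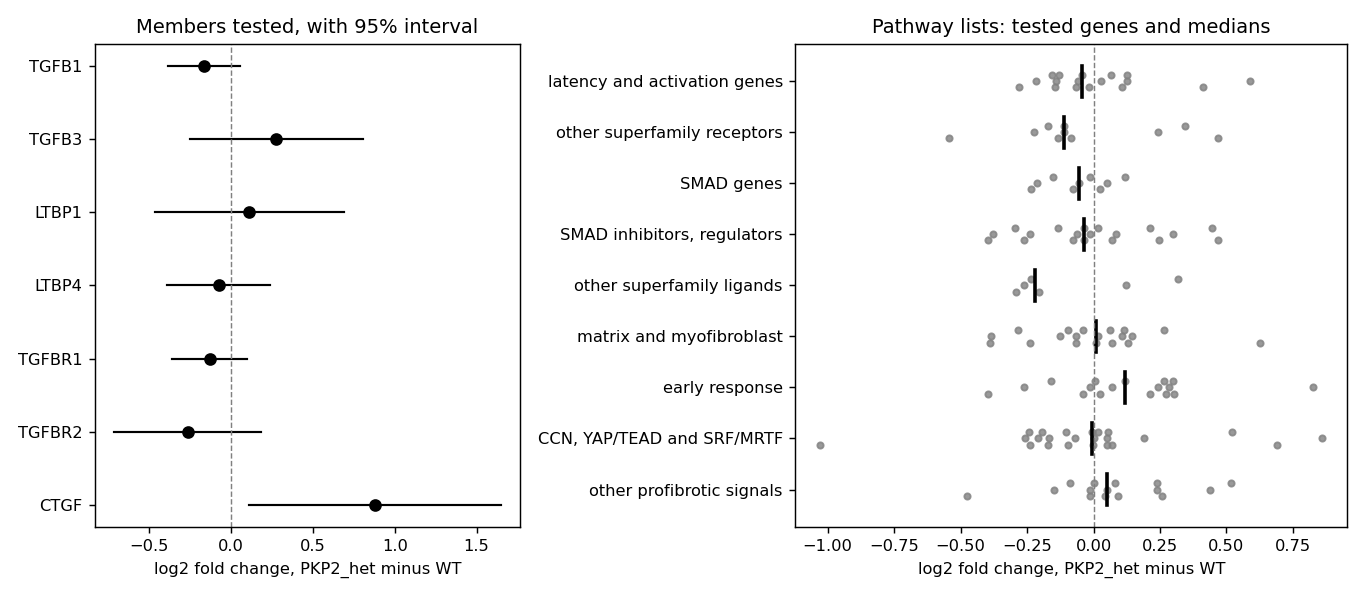
Log2 fold changes, PKP2_het minus WT, of the 7 tested members with 95% intervals (left) and of the tested genes in 9 pathway lists, with 1 grey point per gene and a black bar at each list median (right). Only the CTGF interval, 0.11 to 1.65, lies above 0, and the list medians lie between -0.22 and 0.12.

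Markers of cells that produce or answer to TGF-beta also varied between libraries. All 8 tested macrophage markers had a negative log2 fold change, as did 5846 of all 10757 tested genes. The summed level of the macrophage markers was 22.5 to 61.6 FPKM in PKP2_het, against 40.8 to 56.4 FPKM in WT. Of the 8 tested 0 were called, with a median log2 fold change of -0.30. That median lay between -0.54 without PKP2_het replicate 2 and -0.14 without PKP2_het replicate 4. Markers of platelets and megakaryocytes, cells known to store TGF-beta 1 protein, were low: 5 of 6 averaged under 1 FPKM, and their sum was 2.15 to 2.82 FPKM in PKP2_het, against 1.66 to 3.59 FPKM in WT. Markers of T, NK and B cells summed to 2.24 to 6.46 FPKM in PKP2_het, against 10.8 to 14.1 FPKM in WT, and 7 of 9 averaged under 1 FPKM. The gap between these ranges rested on GNLY (granulysin), 1 of the 3 tested, which was called lower (limma adjusted p = 0.000139). Without GNLY the sums were 2.09 to 5.53 FPKM in PKP2_het, against 4.94 to 6.78 FPKM in WT, and overlapped. Adipocyte markers summed to 178 to 294 FPKM in PKP2_het, against 132 to 277 FPKM in WT. Without CFD, the adipocyte marker of highest mean, the sums were 17.3 to 94.8 FPKM in PKP2_het, against 11.4 to 179 FPKM in WT. Of the 4 adipocyte markers tested, 3 had a positive log2 fold change and 1 a negative one, and 0 were called. Mesothelial and epicardial markers summed to 2.57 to 3.96 FPKM in PKP2_het, against 2.15 to 3.37 FPKM in WT. The sum of the cardiomyocyte markers was 18439 to 24314 FPKM in PKP2_het, against 19356 to 21058 FPKM in WT. The part of these cells in the levels of the 9 genes was not tested.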

How the data were processed

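Read pairs of 150 bp from right ventricle were mapped by HISAT2 2.0.5 (source: the submitters' processing notes and series text). Which program and annotation the authors counted with is not given in the sources used here. FPKM values are as the authors deposited them. Multiplied by gene length, 100% were whole multiples of 1 step per library to within 0.01, and these multiples are the fragments quoted. Of 30550 genes, 30335 had the same start and end in RefSeq's Sscrofa11.1 table, the build of the coordinates given.

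Groups and replicate numbers come from the sample titles. The 10757 genes reaching 1 FPKM in 4 or more libraries were fitted on log2(FPKM + 1) by limma 3.58.1 (R 4.3.3; trended variance; two-sided; Benjamini-Hochberg over all 10757). The added 1 shrinks log2 fold changes of low genes, but not ratios of means. On simulated data for 4 PKP2_het against 4 WT libraries (10689 genes), this fit recovered 64.9% of 2-fold and 94.8% of 4-fold changes. The simulation drew each gene independently, so no simulated library stood apart as PKP2_het replicate 3 did. Its rates are averages over genes and may not hold for the real libraries or for a variable gene such as CTGF.

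The members and lists were chosen with earlier results of these data known. Of 221 listed genes, 216 matched by symbol, 3 by protein annotation and 2 not. Named were all members, PKP2, per list the called genes and up to 3 others of smallest p, the genes of highest Pearson r with each member and, per cell type, up to 3 markers of highest mean. CYR61, FOS and the called marker LMOD1 were named outside this rule, after their values were seen. ZFYVE9 was named only as an entry of its list. The 20 alternatives covered pseudocounts, filters, scalings, variance models, library weights, voom on the fragments, a replicate block and each library left out.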

Additional observations from a re-analysis of the deposited data

Results flagged for a closer look

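Dixon's ratio at the 95% level was applied to 80 groups of 4 libraries, for the members, summed levels, ratios and named pathway genes. It singled out a library in 4 groups, and chance gives about 1 in 20. TGFB1 in PKP2_het replicate 2 was at 14.6 FPKM, just below the other PKP2_het libraries, which all lay at 15.8 FPKM. The ratio of CTGF to CYR61 was 2.16 in WT replicate 3, against 0.605 to 0.763 in the other WT libraries. SMAD1 was at 1.96 FPKM in PKP2_het replicate 2, against 1.46 to 1.52 FPKM in the others of that group. INHBA was at 2.98 FPKM in WT replicate 3, against 4.11 to 4.31 FPKM.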

How the results depend on the processing

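None of the 7 tested members was called in any of the 20 alternatives, and the direction of TGFB1, TGFB3, LTBP4, TGFBR1, TGFBR2 and CTGF did not change in any. Scaling to equal FPKM sums moved the median of all tested genes to -0.23. LTBP1 was then at -0.11, TGFB2 at -0.053, SMAD5 at -0.080 and TEAD3 at -0.047, all opposite in sign to their reported values. Relative to that median LTBP1 was at 0.12, against 0.13 as reported, TGFB2 at 0.18, against 0.08, and CTGF at 0.86, against 0.90. With 1 library left out, LTBP1 ran from -0.10 to 0.30, LTBP2 from -0.04 to 0.19, LTBP4 from -0.17 to -0.0032, TGFB3 from 0.12 to 0.48 and CTGF from 0.62 to 1.22. The PKP2 exact permutation p was 0.0571 without PKP2_het replicate 3, the smallest that 35 relabellings allow, and PKP2 was called with library quality weights, at -0.57. Over all tested genes, calls numbered 124 higher and 76 lower in PKP2_het. These counts were 50 and 45 with equal sums, 367 and 292 with library quality weights, and 66 and 39 with a replicate block. They ran from 75 to 195 higher and 40 to 119 lower with 1 library left out. Same-numbered libraries correlated over 0.1 in 1 of 4 numbers, at 0.20 for number 4. So few values cannot tell whether libraries of the same number share more than that number. The replicate block (CTGF 0.88, limma adjusted p = 0.375) changed no call among the members. voom gave no value for TGFB2 and LTBP2, which missed its filter. Depth limited LTBP2 most, at 40 fragments in its lowest library. The cause of these shifts was not tested.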
